A study of Mus musculus with 12 samples.

Results

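The class II odorant receptors from Olfr987 to Olfr1170 form a stretch of genes on mouse chromosome 2. They were taken by symbol, leaving out Olfr1099 and every probe set with several gene symbols, and by the probe set with the highest mean where a gene had several. This gave 121 receptors, of 1015 odorant receptors and 19938 genes measured. The symbols span 184 numbers, so not every number has a gene with a probe set of its own. All of these receptors were placed on chromosome 2 by the RefSeq gene reference (GRCm38.p6), which was used for names and for the order of neighbours. That reference lists Olfr1010, counted here among the receptors, as a transcribed pseudogene. The division into class I and class II receptors was not tested here.

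RNA was measured on 12 Mouse Gene 1.0 ST arrays, in 4 groups of 3 arrays. All mice carried the S100a5-tauGFP allele, in which a GFP reporter stands under the control of S100a5, a gene that olfactory sensory neurons switch on with activity. Females and males aged 7 to 12 weeks were kept for 40 hours in a chamber with air flowing at 3.1 L per minute, and from 26 hours on received a pulse of 10 seconds every 20 minutes. The pulse held a citrus accord, a fragrance mixture (odor mice), or filtered air alone (vehicle mice). The olfactory mucosa of 3 mice was pooled per sample, 18 mice in all, and a cell sorter split each pool by its GFP signal, so both fractions of a pool came from the same animals. The groups were thus vehicle GFP-negative, vehicle GFP-positive, odor GFP-negative and odor GFP-positive. GFP-negative cells are every cell without enough reporter signal, neurons or not. With 3 pools a group, the p-values measure the spread between pools within the groups. The main fit did not pair the fractions of a pool. Its p-values for the sort thus do not rest on the spread of the differences within pools. The design asks which receptor RNAs are enriched in the GFP-positive cells, and which of them differ with the odorant.

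Odorant receptors are G protein-coupled receptors in the cilia of olfactory sensory neurons. A mature neuron transcribes a single receptor gene, from one of its alleles, so the RNA of a receptor in a pool of cells comes from the neurons that chose it. Receptor promoters in the mouse are known for sites of homeodomain proteins such as Lhx2 and for sites of Ebf factors, and neighbouring receptor genes share distant enhancers. Among the receptors described here, Olfr1019 is known to respond to a compound of fox odor, and the ligands of most others are not taken up here.

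The values are log2 signals as deposited, so a difference of 1 is 2-fold. A signal depends on the probes, so an order of signals between receptors, where one is given, describes probe sets and not amounts of RNA. Related receptors can share probe sequence, which makes the value of any single receptor uncertain. Between the arrays of a group, the median over the 121 receptors varied most in GFP-negative cells. It was 6.18, 6.39 and 5.79 in vehicle pools 1, 2 and 4, and 6.69, 6.08 and 6.12 in odor pools 2, 3 and 4. In GFP-positive cells it was 7.03, 7.14 and 7.14 in the vehicle pools and 7.11, 6.90 and 7.20 in the odor pools. The GFP-negative arrays of vehicle pool 4 and odor pool 2 thus stood at the low and the high end, and every GFP-positive array was above every GFP-negative array.

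Marker genes of the sorted cell types separated the fractions. Of 16 genes of mature olfactory neurons and odor transduction, 14 were higher in GFP-positive cells of vehicle mice and 15 in those of odor mice (medians 0.52 and 0.61). Omp, a marker of mature olfactory neurons, rose by 0.31 (SE 0.079, limma adjusted p = 0.00549) in vehicle mice. S100a5 itself had a low signal, and was higher by 0.31 (SE 0.10, limma adjusted p = 0.0166) in odor mice, with a difference of 0.19 (SE 0.10, adjusted p = 0.123) in vehicle mice. All 29 leukocyte genes measured were lower in GFP-positive cells in both treatments, and their mean was 10.37 to 10.84 on GFP-negative arrays and 7.35 to 7.72 on GFP-positive arrays. All 6 sustentacular cell genes measured were lower too, with medians of -1.75 and -1.76. All 4 genes of respiratory ciliated cells measured were higher in GFP-positive cells (medians 0.58 and 0.69), and of 8 genes of immature neurons 2 were higher and 5 lower in vehicle mice, with 2 and 4 in odor mice. Of the 7 activity-dependent genes listed, S100a5 among them, the vehicle sort called 3 higher and 3 lower, and the odor sort 4 higher and 3 lower. Kirrel2 was higher by 1.25 and 1.35, while Fos, an immediate early gene, differed by -2.66 and -2.86 and Egr1, another, by -2.32 and -2.41. The part of other cell types in the receptor differences was not tested. In these bulk samples, fewer cells of a type and less RNA per cell cannot be told apart.

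**Figure D1:**
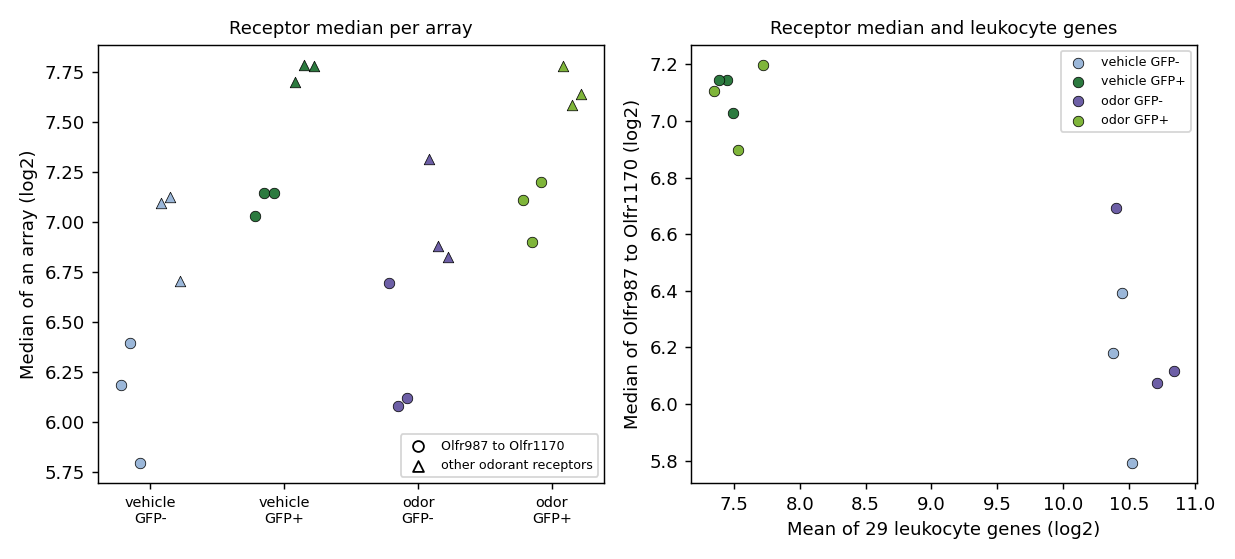
Left, the median log2 signal of each array over Olfr987 to Olfr1170 (circles) and over the 894 other odorant receptors (triangles), by group. Right, the first of these medians against the mean of 29 leukocyte genes on the same array. GFP-positive arrays lie between 6.90 and 7.20 for these receptors and GFP-negative arrays between 5.79 and 6.69, and the 2 fractions also separate on the leukocyte genes.

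In vehicle mice, most receptors of the stretch had more RNA in GFP-positive than in GFP-negative cells. Of the 121, 75 were higher and 15 lower (limma, adjusted p under 0.05 over all genes), and 31 did not pass the test. Over all genes, 29.9% were higher and 18.2% lower. The receptors' differences ran from -3.37 to 3.33 with a median of 0.87, where all genes had a median of 0.056. The 894 other odorant receptors had a median of 0.75, with 535 higher and 98 lower, and the next 111 receptors along the numbering (Olfr1171 to Olfr1318) had 0.91, with 74 higher and 7 lower. The 2 groups did not overlap for 76 receptors with higher and 15 with lower GFP-positive values, 75.2% of the stretch, against 57.4% of all genes. When each array was centred on its receptor median, the split became 44 higher and 46 lower, with a median of 0.043. Centring takes the same value from every receptor on an array, so a near-even split of receptors follows from its construction.

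The odor mice gave the same picture with other animals. In them, 71 receptors were higher and 17 lower in GFP-positive cells, and 33 did not pass (limma), against 33.5% higher and 18.7% lower over all genes. Their differences ran from -3.18 to 3.11 with a median of 0.79, and all genes had 0.13. The groups did not overlap for 74 higher and 17 lower receptors, against 60.7% of all genes. After centring on the receptor median the split was 38 higher and 40 lower, with a median of 0.085. Without centring, the 894 other odorant receptors had a median of 0.66 in odor mice, with 508 higher and 109 lower. Olfr1171 to Olfr1318 had 0.78, with 70 of 111 higher and 10 lower.

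Across both treatments, 68 receptors were higher in GFP-positive cells in each (25.6% of all genes were), and 15 were lower in each (16.5% of all genes). No receptor had opposite calls, 12 were called in 1 treatment and 26 in neither. The 68 were 90.7% of those higher in vehicle mice and 95.8% of those higher in odor mice, and the 15 were 100% and 88.2% of those lower. Pool by pool, 75 receptors were higher in GFP-positive cells of all 6 pools and 18 lower in all 6, where all genes gave 36.1% and 20.2%. The median difference within a pool was 0.65, 0.73 and 1.21 in vehicle pools 1, 2 and 4 and 0.57, 0.74 and 0.81 in odor pools 2, 3 and 4, so vehicle pool 4 stood highest. The differences of the 2 treatments correlated with Pearson r = 0.972 and Spearman rho = 0.958 across the 121 receptors. These share their probes and scaling in both treatments and are not independent replicates. The 894 other odorant receptors were much alike, with 468 higher and 90 lower in both treatments. Of these 894, 545 were higher and 105 lower in all 6 pools, with Pearson r = 0.964. Olfr1171 to Olfr1318 had 67 of 111 higher and 6 lower in both treatments, with Pearson r = 0.953. Under centring on the receptor median, 36 of the 68 were still higher in both treatments, after a shift common to all receptors. Apart from centring and a filter on low values, 10 alternatives were run for each sort comparison. Of the 68 receptors, 61 kept the vehicle call in all 10, and 53 kept the odor call in all 10. Of the 15 lower receptors, 13 kept the vehicle call and 13 the odor call.

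**Figure D2:**
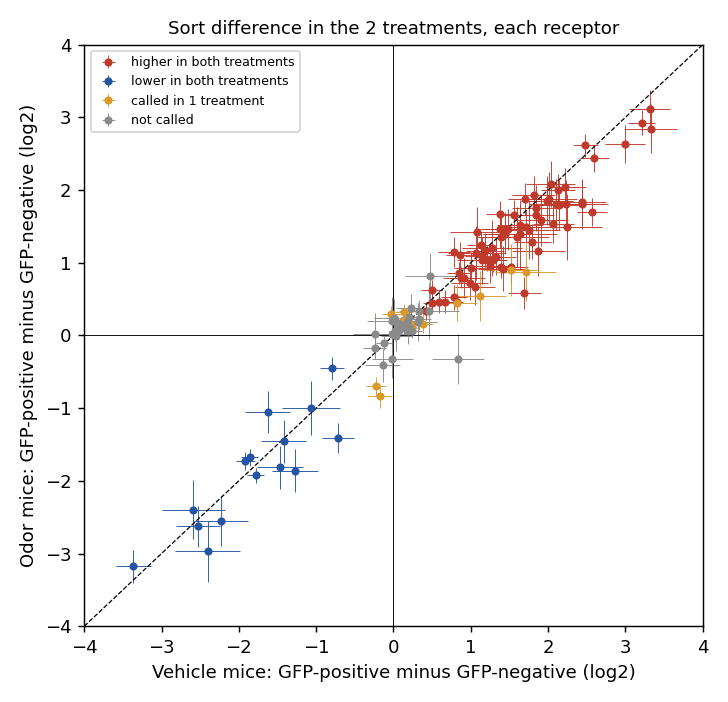
Sort difference (GFP-positive minus GFP-negative, log2) of each of the 121 receptors in vehicle mice (horizontal) and odor mice (vertical), with the standard error of the fit as bars and the line of equality dashed. The 68 receptors higher in both treatments and the 15 lower in both lie along the line, and no receptor is called in opposite directions; with arrays centred on the receptor median, 32 of the 68 are no longer called higher in both.

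Olfr1037 and Olfr1100 had the largest differences in favour of GFP-positive cells in vehicle mice, and Olfr1100 and Olfr1082 in odor mice. Olfr1037 stood at 6.14, 5.63 and 5.15 in GFP-negative cells of vehicle pools 1, 2 and 4 and at 9.09, 9.14 and 8.67 in their GFP-positive cells. In odor pools 2, 3 and 4 it was 6.51, 5.39 and 5.20 in GFP-negative and 8.97, 8.07 and 8.60 in GFP-positive cells. All GFP-positive values lay above all GFP-negative values, by 3.33 (SE 0.34, adjusted p = 7.11e-06, limma) in vehicle mice and by 2.84 (SE 0.34, adjusted p = 2.48e-05) in odor mice. Olfr1100 was at 6.59, 6.41 and 5.28 in GFP-negative and 9.27, 9.42 and 9.54 in GFP-positive cells of vehicle mice, and at 6.48, 6.51 and 6.12 against 9.36, 9.35 and 9.73 in odor mice. Here too the fractions did not overlap, with differences of 3.31 and 3.11 (SE 0.26 for both).

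Olfr1082 varied less between pools than these. Its GFP-negative values were 5.24, 5.52 and 4.73 in the vehicle pools and 5.33, 5.11 and 5.44 in the odor pools. Its GFP-positive values were 8.34, 8.34 and 8.45, and 8.41, 8.27 and 7.97. The differences were 3.21 and 2.93 (SE 0.17 for both), with adjusted p of 2.85e-08 and 5e-08 by limma, so its error was the smallest of these 3. Olfr1111 rose by 3.00 in vehicle and 2.63 in odor mice (SE 0.26), from 6.54, 7.32 and 5.92 to 9.84, 9.56 and 9.38 in the vehicle pools. Olfr1009 rose by 2.60 and 2.43 (SE 0.19). For Olfr1028 the odor difference was the larger one, 2.62 against 2.48 (SE 0.16), a gap within the error. Other receptors with large differences in vehicle mice were Olfr1052 at 2.57, Olfr1102 at 2.44, Olfr1062 at 2.44, Olfr1153 at 2.24, Olfr1167 at 2.23 and Olfr1093 at 2.22. In odor mice these stood at 1.70, 1.84, 1.81, 1.49, 1.80 and 2.04, and all were still called higher. Olfr1080, Olfr1031, Olfr1156, Olfr1143 and Olfr1090, which were among the leading receptors in odor mice, had 2.08, 2.00, 1.93, 1.88 and 1.87 there and 2.03, 2.13, 1.81, 2.01 and 1.70 in vehicle mice. Olfr1153 had the widest error of these (SE 0.45), and lost its call in odor mice without the GFP-positive array of odor pool 2 (1.11, adjusted p = 0.0703) or the GFP-negative array of odor pool 4 (1.13, adjusted p = 0.0740).

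The 15 receptors lower in both treatments were Olfr1002, Olfr1019, Olfr1030, Olfr1039, Olfr1040, Olfr1042, Olfr1043, Olfr1046, Olfr1109, Olfr1110, Olfr1123, Olfr1124, Olfr1140, Olfr1154 and Olfr1163. Their RNA was more abundant in cells without reporter signal. Olfr1140 had the largest difference. It was at 9.15, 9.55 and 9.56 in GFP-negative cells of the vehicle pools and at 5.82, 5.96 and 6.38 in GFP-positive cells. The odor pools had 9.16, 9.57 and 9.68 against 5.75, 6.58 and 6.54. No GFP-positive value came near a GFP-negative one, and the RNA fell by 3.37 (SE 0.23, adjusted p = 1.76e-07, limma) in vehicle mice, and fell by 3.18 (adjusted p = 2.47e-07) in odor mice.

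Olfr1123 was lower too, with wide spread among GFP-positive pools. Its GFP-negative values were 9.26, 9.01 and 8.96 in vehicle and 9.64, 9.07 and 9.68 in odor mice. Its GFP-positive values were 6.37, 6.27 and 7.38, and 5.30, 6.92 and 7.26. The difference was -2.40 in vehicle and -2.97 in odor mice (SE 0.42), and odor pool 2 was the lowest pool. Olfr1124, the receptor next to it, was also lowest in the GFP-positive cells of that pool, at 6.04 against 7.61 and 7.59 in odor pools 3 and 4, and its differences of -1.06 and -0.99 had an SE of 0.37. Olfr1109 went from 7.22, 8.33 and 7.23 to 5.19, 4.90 and 5.12 in vehicle mice and from 7.83, 6.93 and 7.77 to 4.89, 4.69 and 5.06 in odor mice. It was low in every GFP-positive pool, with differences of -2.52 and -2.63 (SE 0.29). Olfr1046 had differences of -2.59 and -2.40 (SE 0.41), and Olfr1039 of -2.23 and -2.55 (SE 0.35).

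Olfr1019, the receptor known for the fox odor compound, was among the 15 lower receptors and varied little between pools. Its GFP-negative values were 8.39, 8.35 and 8.28 in the vehicle pools and 8.36, 8.33 and 8.41 in the odor pools. Its GFP-positive values were 6.68, 6.44 and 6.55, and 6.23, 6.40 and 6.69. The 2 fractions stood well apart in all 6 pools, with differences of -1.78 in vehicle and -1.93 in odor mice (SE 0.11, adjusted p = 6.28e-08 and 2.87e-08, limma). Between odor and vehicle mice its values differed by -0.12 in GFP-positive and by 0.028 in GFP-negative cells, neither past the test.

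**Figure D3:**
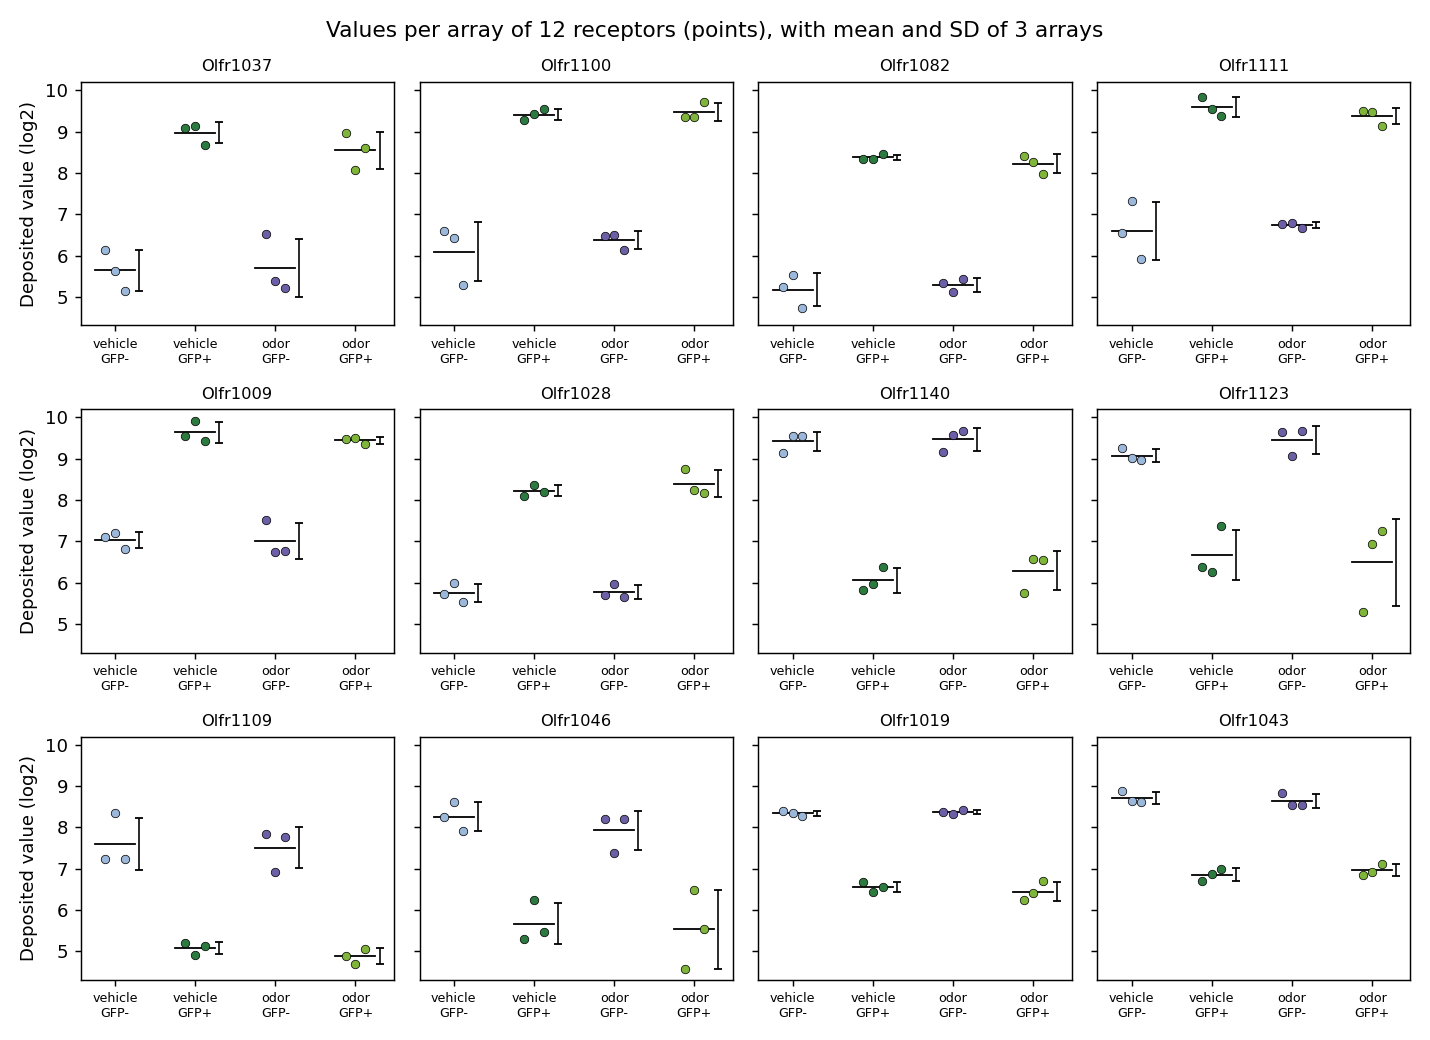
Log2 signal of 12 receptors on each array (points, 3 pools a group), with the group mean (line) and SD (bar). In Olfr1037, Olfr1100, Olfr1082, Olfr1111, Olfr1009 and Olfr1028 every GFP-positive point lies above every GFP-negative point, and in Olfr1140, Olfr1123, Olfr1109, Olfr1046, Olfr1019 and Olfr1043 every one lies below.

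Some receptors differed little between the fractions. Olfr1158 differed by -0.014 and 0.022 (SE 0.18), Olfr993 by 0.037 and -0.014 (SE 0.20) and Olfr1066 by 0.022 and 0.055 (SE 0.084). Each had low signals in every group. Group means were 5.10 to 5.19 for Olfr1158, 4.50 to 4.54 for Olfr993 and 3.32 to 3.41 for Olfr1066, the last near the bottom of the array's range. Olfr1018, whose probe set had the highest mean signal of the stretch, was at 9.12, 9.40 and 9.02 in GFP-negative and 9.55, 9.49 and 9.66 in GFP-positive cells of vehicle mice. Its difference of 0.39 (SE 0.13, adjusted p = 0.0272, limma) lost its call without the array of vehicle pool 1 or 4 in either fraction. A further quantile normalization also removed the call (0.27, adjusted p = 0.0922, limma). In odor mice the difference was 0.16. By contrast Olfr1016, with GFP-positive means of 10.1 in both treatments, rose by 1.39 and 1.35 (SE 0.31). Of the next probe sets by mean signal, Olfr1157 rose by 1.99 and 1.85, Olfr1143 by 2.01 and 1.88 and Olfr1112 by 1.14 and 1.09. These receptors were called higher in GFP-positive cells in each treatment. After centring on the receptor median, Olfr1112 was no longer called, at 0.31 in vehicle and 0.39 in odor mice (adjusted p = 0.175 and 0.107, limma). Among the dimmest, Olfr1061 differed by 0.20 and 0.26 (SE 0.10) and was not called (adjusted p = 0.147 and 0.0518, limma). Olfr1084 rose by 0.82 and 0.45 (SE 0.087). The common shift of centring on the receptor median puts Olfr1018, Olfr1061, Olfr1066, Olfr993 and Olfr1084 below 0 in vehicle mice, as it does any receptor with a difference smaller than the shift.

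Many of these signals were low in one fraction or in both, and no background level was measured. In 34 of the 121 receptors the means of all 4 groups were under the lower quartile of all genes. The 26 receptors called in neither treatment had group medians of 5.17 to 5.28, though the highest means among them were 7.97 to 8.43. They were thus not all dim, and a missing call does not show equal expression in both fractions. For the 68 receptors higher in both, the median receptor went from 6.19 to 7.98 in vehicle mice and from 6.40 to 7.96 in odor mice. In 30 of them both GFP-negative means were under the lower quartile of all genes, which was 6.38 in vehicle and 6.32 in odor mice. For the 15 lower in both, the median receptor went from 8.26 to 6.05 and from 8.09 to 6.29, and in 8 the GFP-positive means were under the lower quartile of GFP-positive cells, which was 6.28 and 6.31.

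Along the chromosome, receptors with opposite sort differences stood side by side. The longest run of receptors lower in both treatments had 4 measured neighbours, Olfr1039, Olfr1040, Olfr1042 and Olfr1043. Olfr1042 was at 8.49, 8.28 and 8.11 in GFP-negative and 6.50, 6.42 and 6.21 in GFP-positive cells of vehicle mice, and Olfr1043 at 8.88, 8.65 and 8.62 against 6.70, 6.86 and 7.00. Their differences were -1.92 and -1.86 in vehicle mice. In odor mice they were -1.72 and -1.68, and those of Olfr1040 in the 2 treatments were -0.80 and -0.45 (SE 0.16). The measured receptor before this run is Olfr1037, which had one of the largest rises. After it come Olfr1044, which rose by 1.91 and 1.59 (SE 0.35), and Olfr1045, which rose by 1.53 and 0.94 (SE 0.22). Olfr1046, the next one measured, was among the most strongly lower receptors. Adjacent receptors thus differed by several log2 units within this short stretch.

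Opposite neighbours were found elsewhere too. Olfr1030, with differences of -1.42 and -1.46 (SE 0.29), lay between Olfr1029, which rose by 1.28 and 1.20 (SE 0.39), and Olfr1031, which rose by 2.13 and 2.00 (SE 0.22). Olfr1109 and Olfr1110 were lower in both treatments, and Olfr1111 beside them was higher. With the values as deposited and all arrays, Olfr1018 and Olfr1020, on either side of Olfr1019, were not called lower. Without the GFP-negative array of odor pool 3, Olfr1020 was called lower in odor mice (-0.76, adjusted p = 0.0344, limma). Centring on the receptor median gave a lower call to Olfr1020 in odor mice and to Olfr1018 in both treatments. In all, 13 of the 120 adjacent pairs had opposite calls. This count was not set against a random order of the same calls, so it shows no excess of opposite neighbours. The longest runs of receptors higher in both had 6 measured neighbours, from Olfr1079 to Olfr1086 and from Olfr1098 to Olfr1105.

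Over the whole stretch, adjacent receptors were little more alike than distant ones. The sort difference averaged over treatments had Pearson r = 0.090 over 120 adjacent pairs, -0.12 for receptors 2 places apart and -0.061 for those 5 apart, and 0.059 over the 110 adjacent pairs of the next stretch. The median absolute difference was 1.01 between adjacent receptors and 1.09 over all pairs. By position, the segment from Olfr1020 to Olfr1046 held 6 of the 15 lower receptors and 8 higher ones among 20 (medians 0.23 and 0.20), and the segment from Olfr1047 to Olfr1084 held 12 higher and 0 lower among 20. These segments are cut by rank and were not tested against each other.

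**Figure D4:**
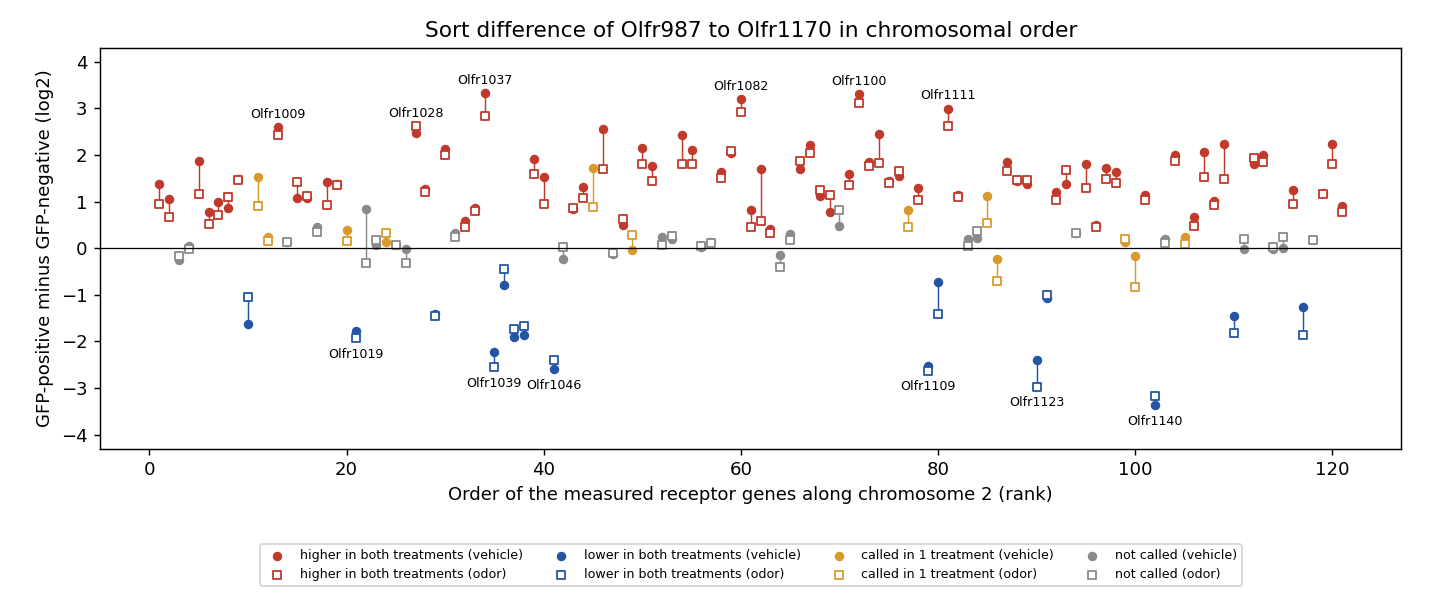
Sort difference (GFP-positive minus GFP-negative, log2) of the 121 receptors in their order along chromosome 2, in vehicle mice (filled circles) and odor mice (open squares), coloured by whether the receptor was called in both treatments, in 1 or in neither. Higher and lower receptors are found side by side, with 13 adjacent pairs of opposite calls and a run of 4 lower receptors from Olfr1039 to Olfr1043. Neither was compared with a random order.

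In the RefSeq promoter table (GRCm38.p6), 30 receptors of the stretch have a window that does not start at an ATG. The bases before the start are shown for the 2 highest and the 2 lowest mean sort differences among these 30. Each is 250 bases, 5′ to 3′ on the strand of the gene and ending at its start, with capitals marking the homeodomain-type letters TAATTA, or TAATTG, which reads CAATTA on the other strand. They are Olfr1037 (chr2:86085855-86086104, minus strand), Olfr1082 (chr2:86598810-86599059, minus strand), Olfr1140 (chr2:87745911-87746160, plus strand) and Olfr1163 (chr2:88071408-88071657, minus strand).
Olfr1037: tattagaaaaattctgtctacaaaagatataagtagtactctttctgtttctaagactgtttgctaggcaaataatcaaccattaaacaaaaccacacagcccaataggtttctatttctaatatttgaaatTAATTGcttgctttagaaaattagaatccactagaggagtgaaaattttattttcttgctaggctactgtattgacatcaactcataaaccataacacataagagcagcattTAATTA
Olfr1082: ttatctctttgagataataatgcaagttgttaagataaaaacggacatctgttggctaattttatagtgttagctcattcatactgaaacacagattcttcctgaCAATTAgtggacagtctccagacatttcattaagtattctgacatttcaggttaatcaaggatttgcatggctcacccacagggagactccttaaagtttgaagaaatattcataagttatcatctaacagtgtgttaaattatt
Olfr1140: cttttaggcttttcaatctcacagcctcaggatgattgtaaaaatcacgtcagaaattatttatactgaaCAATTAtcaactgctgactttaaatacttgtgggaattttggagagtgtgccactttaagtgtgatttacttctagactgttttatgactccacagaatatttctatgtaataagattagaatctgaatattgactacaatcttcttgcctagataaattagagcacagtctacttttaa
Olfr1163: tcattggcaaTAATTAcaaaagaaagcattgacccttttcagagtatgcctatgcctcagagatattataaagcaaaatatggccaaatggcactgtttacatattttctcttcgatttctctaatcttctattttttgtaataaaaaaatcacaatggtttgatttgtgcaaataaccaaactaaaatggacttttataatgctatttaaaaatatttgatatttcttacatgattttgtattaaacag
The match lay 6 bases before the start in Olfr1037, with another at 118, and at 145 in Olfr1082, both higher in GFP-positive cells. It lay at 180 in Olfr1140 and at 240 in Olfr1163, both lower.

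The table of promoters held such windows for 95 of the 121 receptors, and 65 of these start at an ATG, so their true start may lie further upstream. On either strand, TAATTA was in 22 of the 95 windows (23.2%), in 18.1% of 944 receptor windows and in 4.84% of 32851 windows of all genes. TAATTG was in 32 (33.7%), against 22.6% and 7.17%. One or the other was in 49 (51.6%), against 36.7% and 11.3%. By sort call, 28 of the 57 windows of receptors higher in both held it (49.1%), and 4 of the 10 windows of receptors lower in both (40%). The median sort difference was 1.10 with a match of either kind and 0.92 in the 46 windows without. For TAATTA alone it was 0.81 with and 1.12 without, and for TAATTG alone 1.17 and 0.97, so the direction differed between the motifs. The Ebf-type letters CCCNNGGG were in 2 windows (2.11%), those of Olfr1093 and Olfr1130, against 2.75% of receptor windows and 11.8% of all. A match of letters is a description of the window and not of a factor bound there. A link between these letters and the sort was not tested.

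Against the vehicle, the citrus accord gave no receptor of this stretch a change that passed the test. In GFP-positive cells 0 of 121 were called higher or lower (limma; all genes 0.00502% and 0%), and 1 had an unadjusted p under 0.05, where 1.3% of all genes did. The differences ran from -0.55 to 0.47 with a median of -0.054, close to the -0.051 of the other receptors. Above 0 were 39 of the 121, 343 of the 894 other receptors and 10459 of 19938 genes. In 1 receptor, Olfr1130, the 2 groups did not overlap (all genes 7.93%). Its vehicle values were 7.03, 7.14 and 7.03 and its odor values 7.88, 7.17 and 7.24, so the difference of 0.36 (SE 0.18, unadjusted p = 0.0651) came mostly from odor pool 2.

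The smallest p in GFP-positive cells belonged to Olfr1085. It stood at 6.09, 6.73 and 6.98 in the vehicle pools and at 6.07, 6.25 and 5.85 in the odor pools, overlapping at the low end, with a difference of -0.55 (SE 0.22, unadjusted p = 0.0268, adjusted p = 1.00, limma). Olfr1084 beside it had -0.17 (SE 0.087), Olfr1052 had -0.34 (SE 0.20) and Olfr992 had 0.25 (SE 0.15). None of these passed the test.

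In GFP-negative cells again 0 of 121 passed in either direction (limma; all genes 0% and 0%), and 10 had an unadjusted p under 0.05, 8.26% against 6.53% of all genes. The median difference was 0.062, with 82 of 121 above 0, and without the GFP-negative array of odor pool 2 the median was -0.05. The other receptors had a median of 0.031, with 480 of 894 above 0. Of Olfr1171 to Olfr1318, 78 of 111 were above 0, and of all genes 9023 of 19938. The groups did not overlap for 7 receptors, 6 with higher and 1 with lower odor values, 5.79% against 7.44% of all genes. Olfr1137 had the smallest p, with 5.16, 5.06 and 4.90 in the vehicle pools and 5.28, 5.65 and 5.91 in the odor pools, a difference of 0.57 (SE 0.16, unadjusted p = 0.00306, adjusted p = 0.732). Olfr1118 was at 6.99, 6.79 and 7.17 against 7.48, 7.19 and 7.51, a difference of 0.41 (SE 0.13). The nearest values of the groups were 5.16 and 5.28 for Olfr1137, and 7.17 and 7.19 for Olfr1118, so neither gap was wide. Olfr1154 had a difference of 0.82 (SE 0.30), Olfr1020 of 0.93 (SE 0.34) and Olfr1052 of 0.53 (SE 0.20). Without the GFP-negative array of odor pool 4 there was 1 call, Olfr1002, whose odor values of 4.96, 5.03 and 6.39 lay on either side of the vehicle values of 6.11, 5.85 and 6.20. Its difference was -0.60 (SE 0.29) over all arrays and -1.06 (SE 0.12, adjusted p = 0.0469, limma) without that array.

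The test of whether the sort difference itself changed with the odorant called 0 of the 121 receptors (limma; all genes 0.00502% higher and 0% lower). An unadjusted p under 0.05 was found for 7, 5.79% against 4.23% of all genes, and the smallest adjusted p was 0.971. The median change was -0.12, with 40 of 121 above 0. The other receptors had -0.081, with 328 of 894 above 0, and of all genes 10813 of 19938 were above 0. The smallest p was that of Olfr1085, whose sort difference was 1.69 in vehicle and 0.58 in odor mice (change -1.11, SE 0.31, unadjusted p = 0.00345). Its GFP-negative values were 4.95, 5.24 and 4.53 in vehicle and 5.31, 5.66 and 5.44 in odor mice, higher in the latter without overlap, while its GFP-positive values were the lower ones described above. Olfr1052 changed from 2.57 to 1.70 by the same measure (-0.87, SE 0.28, unadjusted p = 0.00846), and Olfr1084 from 0.82 to 0.45 (-0.36, SE 0.12). Olfr1137 and Olfr1118 passed the sort test in odor mice (-0.84 and -0.70, adjusted p = 0.000691 and 0.000764, limma) and not in vehicle mice (-0.17 and -0.23), yet the test of the difference gave an adjusted p of 0.971 for both.

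**Figure D5:**
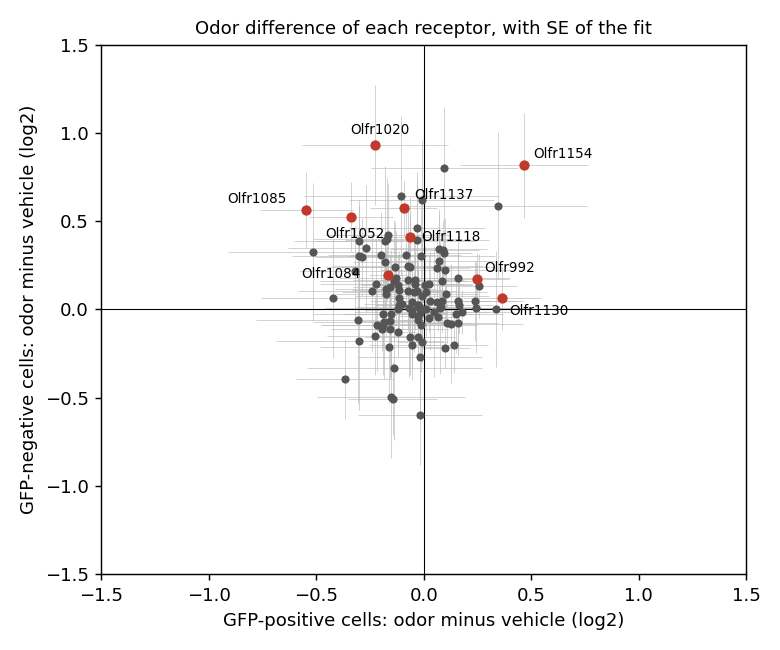
Odor minus vehicle difference (log2) of the 121 receptors in GFP-positive cells (horizontal) and GFP-negative cells (vertical), with the standard error of the fit as bars. Labelled receptors have the smallest p in 1 of the comparisons, and none of the 121 passes the test in either fraction.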

How the data were processed

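Log2 signals, 1 per probe set and array, come from the authors' deposited table. The submitters' processing notes name Affymetrix Expression Console for it. Not given in the sources used here: its version, the summarization and background methods, and how arrays were scaled. No further normalization was applied. Of 35556 probe sets, 21789 had 1 gene symbol, giving 19938 genes, and 1621 with several symbols were left out, so that Olfr1034, Olfr1128, Olfr1129, Olfr1162 and Olfr1170 have no value of their own. Arrays give no count, so no depth can be stated, and precision is limited by their number, 3 a group.

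The 4 groups were fitted together with limma 3.58.1 (R 4.3.3; lmFit, eBayes), with Benjamini-Hochberg adjustment over all genes at 0.05 and no filter. The fit was tried on simulated data with independent arrays and no pool effect, so that trial cannot speak to the pairing of fractions. Fractions of a pool share their mice, but this fit treated them as independent arrays. Their deviations from the group means correlated with r of 0.07 to 0.25 over 6 pools. Numbers shared across treatments gave -0.21 to 0.44.

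The receptors and marker lists were chosen with earlier results of these data known. Receptors named are those with the largest sort differences past the test (12 rises and 8 falls a comparison), the 5 smallest p of each odor comparison and of the interaction, the 5 highest and 3 lowest mean signals, the 3 smallest sort differences, and Olfr1019. The rule's clause on protein identity was not applied. Olfr1002, Olfr1006, Olfr1029, Olfr1030, Olfr1040, Olfr1044, Olfr1045, Olfr1110 and Olfr1124 were named outside the rule, after their values were seen. So were Olfr1047, Olfr1079, Olfr1086, Olfr1098 and Olfr1105, as ends of runs or segments. Olfr1010 was named for its gene type, and further receptors as symbols of shared probe sets. The alternatives were a further quantile normalization, centring on the receptor median, a filter on low values, 2-group fits, replicate blocks and leaving out each array.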

Additional observations from a re-analysis of the deposited data

How the results depend on the processing

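Alternatives were compared with the values above. With arrays centred on their receptor median, vehicle sort counts became 44 higher and 46 lower (median 0.043) and odor counts 38 and 40 (median 0.085). This lowers every receptor's difference alike, so differences smaller than the shift turn sign by construction: in vehicle mice Olfr1084 to -0.0115, Olfr1018 to -0.44, Olfr1066 to -0.81, Olfr1061 to -0.63 and Olfr993 to -0.79, and in odor mice Olfr1085 to -0.12, Olfr1084 to -0.25, Olfr1018 to -0.54, Olfr1066 to -0.65, Olfr1061 to -0.44 and Olfr1158 to -0.68. With the lower quartile of genes dropped, 74 receptors were left, with medians of 1.39 in vehicle and 1.15 in odor mice and 11 lower in odor mice. Leaving out each array in turn gave 67 to 78 higher and 13 to 15 lower in vehicle mice (median 0.82 to 1.01), and 55 to 71 higher and 15 to 18 lower in odor mice (0.66 to 0.89). The odor medians ranged from -0.12 to 0.01 in GFP-positive and -0.05 to 0.16 in GFP-negative cells, and the interaction from -0.18 to 0.02. No receptor was then called for odor in GFP-positive cells or for the interaction, and 0 to 1 was called lower in GFP-negative cells. With pool as a replicate block, 77 and 15 receptors were called in vehicle and 74 and 18 in odor mice, and of the receptors named here Olfr1006 was gained in odor mice. Blocks by the numbers in titles or sample codes called no receptor for odor. The block by code number within the GFP-positive fraction, an alternative chosen after seeing the data, gave 0 calls, 10 receptors with an unadjusted p under 0.05 and a smallest adjusted p of 0.940. The sort call of Olfr1085 in odor mice was lost under a further quantile normalization (0.56, adjusted p = 0.0519), and without the GFP-positive array of odor pool 2 (adjusted p = 0.0830) or 3 (0.127), or the GFP-negative array of odor pool 2 (0.104) or 4 (0.0912). Olfr1020 gained a call as higher in vehicle mice under a further quantile normalization (0.94, adjusted p = 0.0398, limma) and in the 2-group fit (0.83, adjusted p = 0.0188). It did so too without the GFP-positive array of vehicle pool 1 (1.03, adjusted p = 0.0424). In odor mice it gained a lower call without the GFP-negative array of odor pool 3. Olfr1061 gained a higher call in vehicle mice without the GFP-positive array of vehicle pool 2 (0.30, adjusted p = 0.0342, limma). In odor mice it gained one in the 2-group fit (0.26, adjusted p = 0.0458, limma). It gained another without the GFP-negative array of odor pool 2 (0.32, adjusted p = 0.0317, limma). The cause of the shifts other than those of centring was not tested.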

Other observations

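Several receptors of the stretch share a probe set with a relative, and the 7 such probe sets, left out above, are given as values without a test. The probe set of Olfr1163 and Olfr1162 went from 8.82 to 7.00 in vehicle mice and from 8.90 to 7.02 in odor mice, lower in GFP-positive cells like the probe set of Olfr1163 alone. The probe set of Olfr1166, Olfr1170 and Olfr1167 went the other way, from 6.89 to 8.75 and from 7.27 to 8.70. That of Olfr1130, Olfr1126 and Olfr1129 went from 6.81 to 8.66 and from 7.16 to 8.65. That of Olfr1036 and Olfr1034 differed by 1.70 in vehicle and 1.30 in odor mice, that of Olfr1065 and Olfr1058 by 1.61 and 1.08, and that of Olfr1134, Olfr1133 and Olfr1128 by 0.92 and 0.63, all higher in GFP-positive cells. The probe set of Olfr1118 and Olfr1116 went from 7.35 to 7.78 in vehicle mice and stood at 7.70 in both fractions of odor mice.

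Olfr1006 is the receptor of the stretch with 2 probe sets of its own. The brighter one went from 7.64 to 9.16 in vehicle mice and from 7.99 to 8.89 in odor mice, and the other from 6.81 to 8.12 and from 7.11 to 7.995. Both were higher in GFP-positive cells, and on the brighter one the odor arrays spread more, with an SD of 0.73 in GFP-negative and 0.75 in GFP-positive cells against 0.13 and 0.22 in vehicle mice. By the limma fit its sort difference passed in vehicle mice (adjusted p = 0.00377) and not in odor mice (adjusted p = 0.0530), and with the pool of mice as a replicate block it passed in odor mice too (adjusted p = 0.000220).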
